A study of Bos grunniens with 18 samples.

Results

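The genes described here are the nuclear-encoded subunits of the 5 complexes of oxidative phosphorylation, measured as RNA in yak testis at 3 ages. They were taken by symbol: those starting with NDUFA, NDUFB, NDUFC, NDUFS or NDUFV and a number, SDHA to SDHD, UQCR, COX4 to COX8 with a following letter, or ATP5, leaving out the NDUFAF assembly factors. The rule uses names only and no measured value. It found 152 gene identifiers with 88 symbols among the 22183 genes of the deposited table. Of these identifiers, 52 had no count in any of the 9 libraries, 8 had at most 7 counts in any library and were filtered out, and 92 identifiers with 83 symbols were tested. The symbols without a tested identifier were COX6A2, which had few counts, and NDUFA13, COX6C, ATP5MD and ATP5MPL, which are listed at 0. ATP5MK and ATP5MJ, the current names of the last pair, were measured under other identifiers. The identifiers are those of cattle genes, while the animals were yaks, so a count of 0 need not mean a silent gene. There were 7 symbols tested on more than 1 identifier, among them COX7B, SDHC, COX8A, UQCRC2 and ATP5PB, and reads of such near-identical copies may have been split between them. A pair of the COX7B identifiers held identical values in every library.

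Oxidative phosphorylation takes electrons from NADH at complex I and from succinate at complex II, passes them through complex III and cytochrome c to oxygen at complex IV, and uses the proton gradient built on the way to make ATP at complex V. Subunits of these complexes come from mitochondrial and nuclear genomes, and only nuclear ones are considered here. Some small subunits of complex IV (cytochrome c oxidase) exist in several forms encoded by separate genes: COX6B2, COX7B2 and COX8C are known as testis forms, COX6A2, COX7A1 and COX8B as heart and skeletal muscle forms, and COX4I2 as a form of lung and hypoxic tissue. In the testis, mitochondria change shape as germ cells pass through meiosis, and late germ cells use their own forms of several mitochondrial proteins.

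Testis tissue came from male yaks castrated at 6 months (Y6M), 18 months (Y18M) and 4 years (Y4Y), 3 animals per age, all from 1 cooperative, with no genotype or drug treatment named. A further label gives a life stage to each group (infancy for Y4Y, adolescence for Y6M, adulthood for Y18M) that goes against these ages, and titles were used for the grouping. Ribosomal RNA-depleted libraries held 22.95 to 33.12 M estimated counts. Markers of testis cell types were present at every age. The summed level of 9 spermatid markers was 1.84 to 4.84 FPKM (fragments per kilobase per 1 M fragments) at 6 months and 5141 to 6659 at 4 years. At 18 months it was 4694, 262 and 1891 in replicates 1, 2 and 3, so those 3 animals stood far apart from one another, with replicate 1 near the 4-year libraries and replicate 2 lowest. The summed level of 8 Sertoli cell markers ran the other way, at 2969 to 3452 FPKM at 6 months, 244, 944 and 480 at 18 months, and 199 to 248 at 4 years. Of these 8 markers, 6 were lower than at 6 months, 1 was higher and 1 was not called at each older age. In bulk tissue, fewer cells of a type and less RNA per cell cannot be told apart.

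Changes between ages are log2 fold changes ± SE from edgeR's quasi-likelihood test with TMM scaling, and adjusted p values are Benjamini-Hochberg values over all 16742 genes tested. Levels compared over ages are counts per 1 M counts (CPM) after the same scaling, unless given as FPKM. Levels compared between genes, isoform shares and summed levels are the authors' FPKM, which carry no such scaling. A series of FPKM over ages can thus differ from the scaled change. The choice of scaling matters for small changes: with library size alone, the median of all genes moved up by 0.40 (log2) for 18 months against 6 months and by 0.29 for 4 years against 6 months.

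With TMM scaling, most subunit transcripts that changed after 6 months became less abundant, while a smaller group rose, led by the testis forms of complex IV. At 4 years, 17 of the 92 tested members were higher than at 6 months (18.5%, against 36.7% of all genes tested) and 47 were lower (51.1%, against 37.2%). At 18 months, 13 were higher (14.1%, against 32.7% of all genes) and 42 lower (45.7%, against 27.1%). In either direction, 64 members were called at 4 years (69.6%, against 73.9% of all genes) and 55 at 18 months (59.8%, against 59.9%), so the share called was near that of all genes while its split by direction was not. The median log2 change of the members was -0.52 at 4 years and -0.42 at 18 months, where the medians of all genes were -0.06 and 0.02. These medians hold COX7B2, whose 6-month counts were all 0, far above the middle, and setting it to its bound leaves them where they are. No library of 1 age overlapped the other age for 79 members at 4 years (85.9%, against 83% of all genes), 64 at 18 months (69.6%, against 65.1%) and 25 between 18 months and 4 years (27.2%, against 25.4%). Required to change by at least 2-fold as well, 12 members were higher and 34 lower at 4 years (31.5% and 30.2% of all genes), and 10 and 23 at 18 months (27.7% and 20.2%).

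The counts at 18 months moved with the scaling and with single animals. With library size alone, 29 members were higher and 19 lower at 18 months (41.4% and 15.6% of all genes), and 24 and 39 at 4 years (41.8% and 29.9%). Members called higher thus made up 23.6% of the called members at 18 months with TMM and 60.4% without it, and 26.6% and 38.1% at 4 years. Of the 55 members called at 18 months, 23 lost their call with library size alone, as did 8 of the 64 at 4 years, and no called member changed direction. Without Y18M replicate 2, 28 members were higher and 39 lower at 18 months (38.3% and 32.2% of all genes). Without Y6M replicate 1 or Y6M replicate 3, 11 were higher and 27 lower (27.9% and 22.1% of all genes without the first, 28.4% and 21.6% without the other), and 17 of the 55 calls were lost in each fit. Without Y18M replicate 3, 12 were higher and 28 lower (29% and 20.4% of all genes), and 16 calls were lost.

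**Figure D1:**
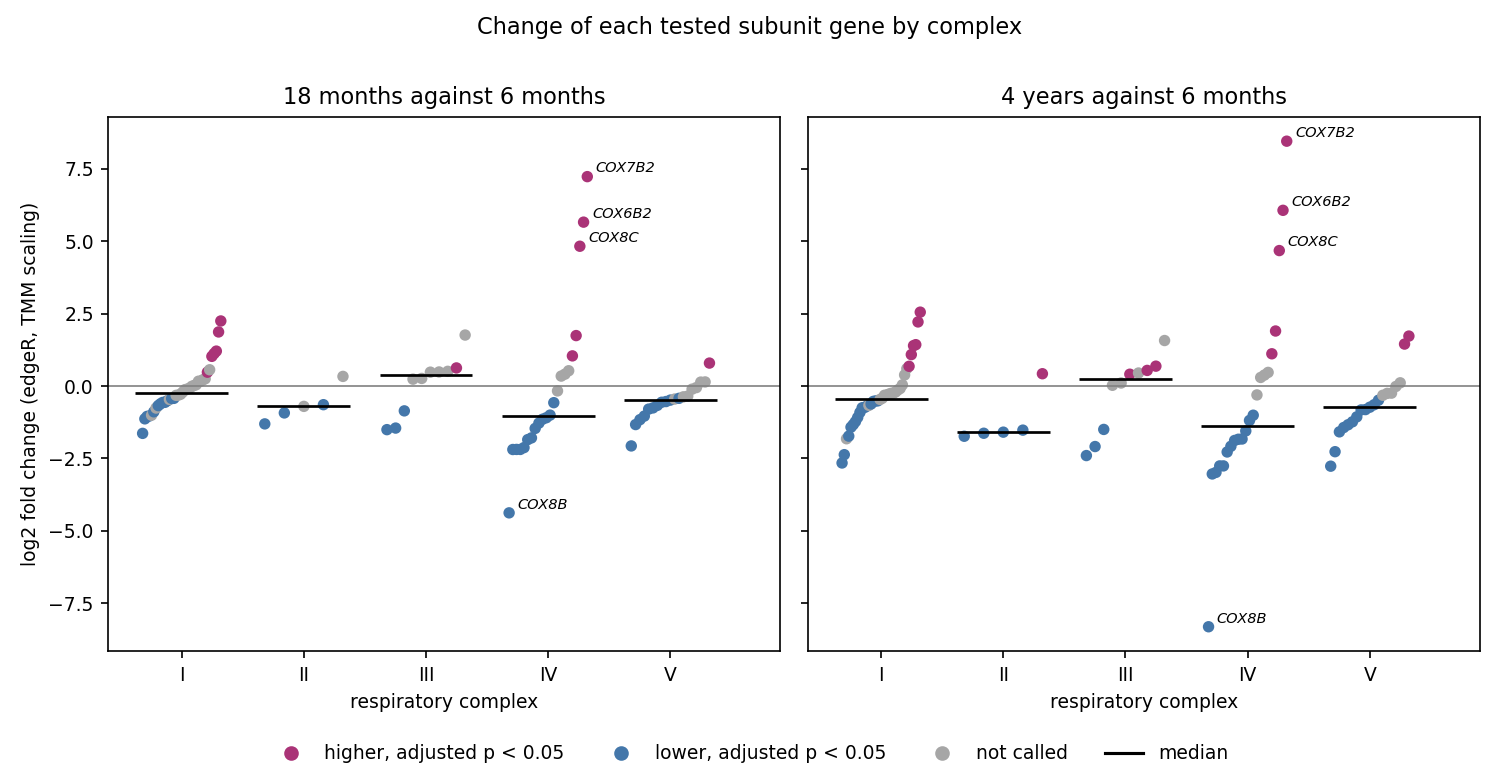
Log2 fold change (y axis) of each of the 92 tested subunit genes, grouped by respiratory complex (x axis), at 18 months and at 4 years against 6 months. Points are genes, coloured by call, and bars are medians; complex IV spans the widest range, from -8.31 for COX8B to 8.46 for COX7B2 at 4 years.

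By complex, the median change at 4 years against 6 months was -0.44 over the 36 tested identifiers of complex I, -1.59 over 5 of complex II, 0.26 over 10 of complex III, -1.37 over 22 of complex IV and -0.73 over 19 of complex V. NDUFA4 and NDUFA4L2 carry complex I names but are counted with complex IV, where the NDUFA4 protein belongs. Members called higher and lower at 4 years numbered 6 and 15 in complex I, 1 and 4 in complex II, 3 and 3 in complex III, 5 and 13 in complex IV, and 2 and 12 in complex V. Identifiers that share a symbol count separately here. All tested identifiers of SDHC are among those lower in complex II, and all of COX7B and COX8A among those lower in complex IV. The shares called lower were 41.7%, 80%, 30%, 59.1% and 63.2% in complexes I to V, against 37.2% of all genes tested, so those of complexes I and III were near the share of all genes. The shares called higher were 16.7%, 20%, 30%, 22.7% and 10.5%, against 36.7%. In the plot of fold changes by complex, the members farthest from 0 on both sides are those of complex IV.

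The largest rises belonged to the testis forms of complex IV. COX6B2 (ENSBTAG00000007200), the testis form of the subunit that faces the intermembrane space and binds near cytochrome c, stood at 3.25, 2.29 and 2.84 FPKM in the 3 animals at 6 months. It reached 280.01, 86.0 and 200.6 FPKM at 18 months and 273.4, 242.1 and 220.8 FPKM at 4 years. Each older library was far above each 6-month library, while the 18-month and 4-year values overlapped. The log2 change was 5.66 ± 0.47 at 18 months (adjusted p = 6.14e-05) and 6.07 ± 0.48 at 4 years (3.75e-05), the smallest p of any member in both comparisons. Its ubiquitous counterpart COX6B1 (ENSBTAG00000055082) was at 177, 167 and 136 FPKM at 6 months, 189, 186 and 194 at 18 months, and 164, 174 and 154 at 4 years. COX6B1 was not called at 18 months (-0.17 ± 0.16, adjusted p = 0.377, and 0.23 with library size alone) or at 4 years (-0.31 ± 0.16, 0.104).

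By 4 years COX6B2 had gone from a minor to the more abundant form of its subunit. Its share of the summed COX6B1 and COX6B2 level was 1.80%, 1.35% and 2.04% at 6 months, 59.7%, 31.6% and 50.9% at 18 months, and 62.5%, 58.2% and 58.9% at 4 years. All 3 libraries at 4 years held more COX6B2 than COX6B1, by FPKM and by counts. At 18 months replicates 1 and 3 did so by FPKM, but by counts only replicate 1 did, and the log2 ratio of counts in replicate 3 was -0.12. The log2 ratio of their counts within a library, which needs no scaling between libraries, was -5.98 ± 0.26 (SD, n = 3) at 6 months, -0.33 ± 0.82 at 18 months and 0.38 ± 0.14 at 4 years. Ages differed in this ratio with p = 0.0107 by an exact two-sided permutation test over the 280 groupings of the libraries, or 0.0214 after adjustment over the 8 isoform pairs compared here.

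COX8C (ENSBTAG00000053789), the testis form of the smallest subunit, followed a like course against COX8A. It had 4, 55 and 33 counts in the 6-month libraries, or 0.234, 3.38 and 2.15 FPKM. At 18 months it was at 68.7, 75 and 76.1 FPKM and at 4 years at 60.3, 74.3 and 57.9 FPKM. The 18-month values were close together here, including replicate 2, in contrast to COX6B2. The log2 change was 4.83 ± 0.66 at 18 months (adjusted p = 0.000422) and 4.68 ± 0.66 at 4 years (0.000285). COX8A (ENSBTAG00000052272), the ubiquitous form, fell over the same ages, from 141, 144 and 145 CPM at 6 months to 39.5, 114 and 60.8 at 18 months and 41.1, 45.7 and 34.1 at 4 years (-1.83 ± 0.34, adjusted p = 0.00128). COX8C made up 1.04% of the summed level of COX8C and all COX8A identifiers at 6 months, 40.8% at 18 months and 49.8% at 4 years, as means of 3 libraries. The ratio of counts differed between ages with an exact permutation p of 0.0143, or 0.0229 adjusted.

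COX7B2 (ENSBTAG00000050016), the testis form of subunit 7B, was rare at every age. It had no count in any 6-month library, 30, 4 and 28 counts at 18 months, and 53, 49 and 39 counts at 4 years. Set against a floor of 3 counts over the 6-month group, it was at least 15.7-fold higher at 18 months and at least 36.4-fold higher at 4 years, with counting error only behind these bounds. COX7B (ENSBTAG00000047768), its ubiquitous counterpart and an early assembly subunit, fell from 102, 75.2 and 82.4 CPM at 6 months to 10.9, 30.0 and 18.4 at 18 months and 9.05, 10.8 and 13.0 at 4 years (-2.98 ± 0.36, adjusted p = 0.000143). At 4 years COX7B2 stood at 7.30, 5.91 and 6.76 FPKM, below the 9.32, 10.4 and 11.1 FPKM of all COX7B identifiers summed. ENSBTAG00000047768 alone was at 6.93, 8.33 and 10.8 FPKM in these libraries, below COX7B2 in replicate 1. The rise of COX7B2 and the fall of COX7B both raise the COX7B2 share of subunit 7B transcripts. With identifiers summed, that share was 0% in each 6-month library, 30.4%, 2.10% and 17.6% at 18 months and 43.9%, 36.2% and 37.9% at 4 years. The exact permutation p of the count ratio was 0.00357 (0.0214 adjusted), the smallest that 280 groupings can give.

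**Figure D2:**
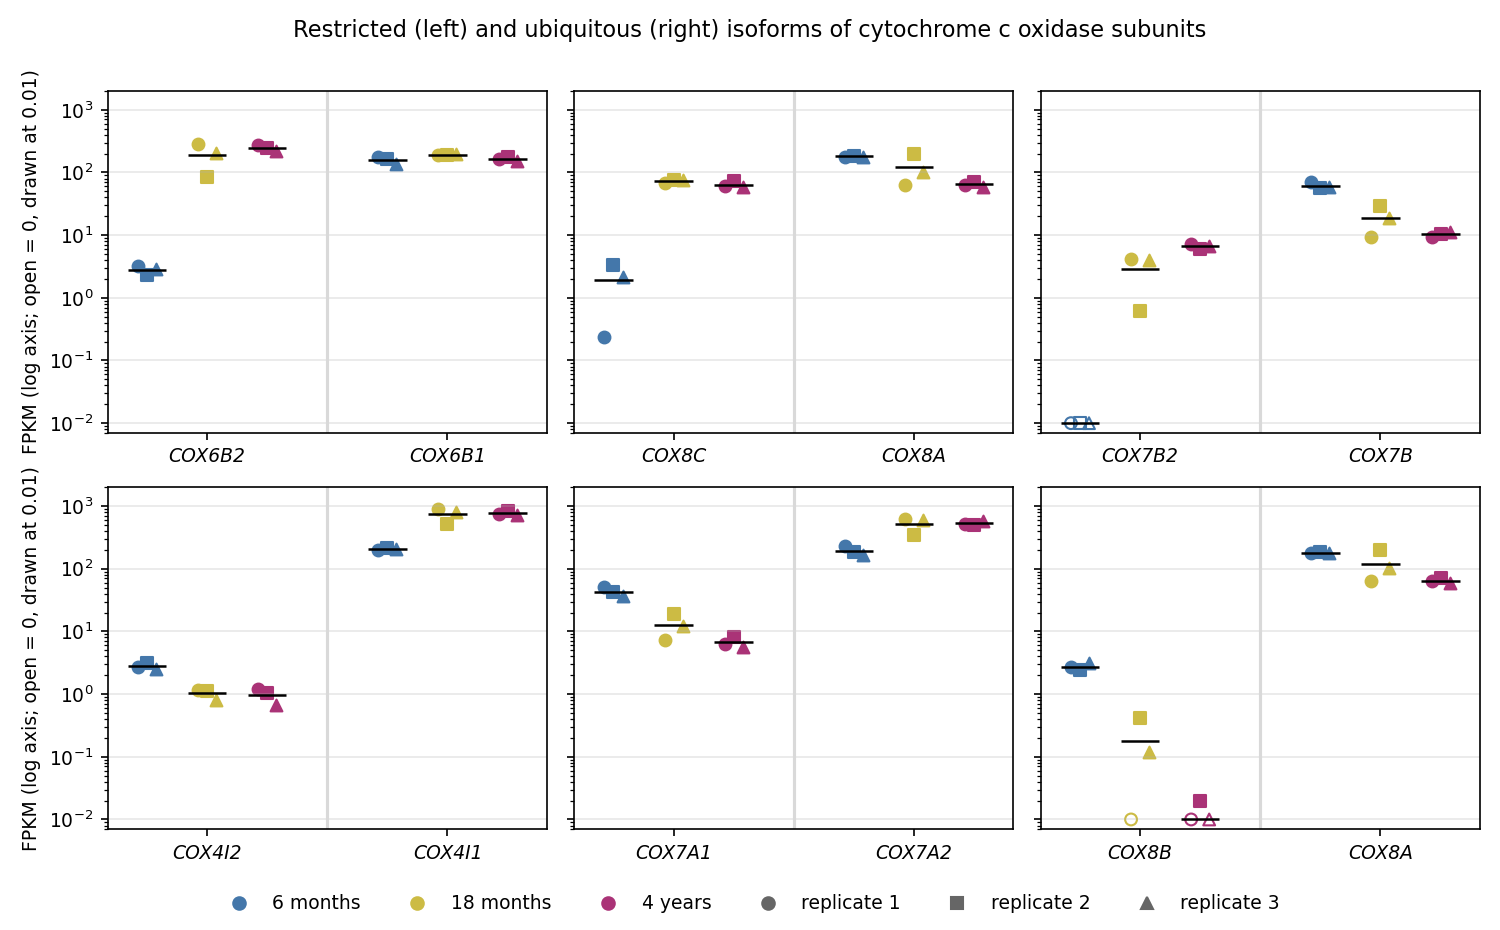
FPKM (log y axis, open symbols are 0 and drawn at 0.01) of a tissue-restricted form (left of each panel) and the ubiquitous form (right) in each library, for 6 isoform pairs of complex IV. COX8A is the ubiquitous form in the panels of COX8C and of COX8B. Identifiers of a symbol are summed. Colours are ages, symbols are replicates and bars are means of 3; COX6B2, COX8C and COX7B2 are higher in every 18-month and 4-year library than at 6 months, while COX4I2, COX7A1 and COX8B are lower.

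The testis forms moved with the germ cell markers: 9 of 9 spermatid and 8 of 8 meiotic germ cell markers were higher at 18 months and at 4 years than at 6 months. The summed meiotic marker level was 3.52 to 6.58 FPKM at 6 months, 391, 191 and 314 at 18 months and 368 to 451 at 4 years. No marker of either list was without counts in all 6-month libraries, though the spermatid markers ODF1, ACR and ACRV1 had at most 3 counts in each of them. Whether cell content accounts for the isoform changes was not tested. Among the 18-month animals, COX6B2 and COX7B2 were lowest in replicate 2, which was also lowest in the summed level of both marker lists. COX8C was not lower there, at 75 FPKM against 68.7 and 76.1.

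The forms known from muscle and from lung went the other way. COX7A1 (ENSBTAG00000014878), the muscle form of subunit 7A, fell from 34.2, 28.4 and 25.5 CPM at 6 months to 3.85, 9.37 and 6.06 at 18 months and 3.40, 4.42 and 2.89 at 4 years. No library of the older ages reached a 6-month value, and the change at 4 years was -3.04 ± 0.35 (adjusted p = 0.000125). COX7A2 (ENSBTAG00000005096), the ubiquitous form, rose from 163, 125 and 120 CPM to 353, 178 and 310 at 18 months and 301, 277 and 306 at 4 years (1.12 ± 0.26, adjusted p = 0.00413). The share of COX7A1 in the summed level of both was 18.4% at 6 months, 2.77% at 18 months and 1.26% at 4 years, with an exact permutation p of 0.0107 for the count ratio (0.0214 adjusted).

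COX8B (ENSBTAG00000002046), the muscle form of subunit 8, had 115, 98 and 128 counts at 6 months, 0, 16 and 5 at 18 months, and 0, 1 and 0 at 4 years. It was thus nearly lost at 4 years, 440.1-fold lower than at 6 months (95% counting interval 78.5 to 17434.8). Over the 3 ages, its ratio to COX8A differed with an exact permutation p of 0.0107. COX6A2, the muscle form of subunit 6A, never passed 4 counts in a library, against 143 to 671 CPM of COX6A1, so a difference between ages was not detectable at this depth (exact permutation p = 0.136). Markers of skeletal or heart muscle summed to 240 to 280 FPKM at 6 months, 97, 322 and 192 at 18 months and 65.6 to 75.8 at 4 years. TNNI3, a cardiac troponin, made up 239 to 279 FPKM of the 6-month sums, and the other markers, MB, MYH7, CKM and ACTA1, were at 0.602 FPKM or less at 6 months. TNNI3 was lower at 4 years (-1.48 ± 0.27, adjusted p = 0.00116), and no other muscle marker tested was called.

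Most markers of Leydig cells, interstitial fibroblasts and endothelium fell over the same ages as these forms. Of 9 tested identifiers of Leydig cell markers, 9 were lower than at 6 months at both older ages, with a median log2 change of -4.75 at 4 years. Their summed level was 11122 to 17697 FPKM at 6 months, 2974, 7637 and 6292 at 18 months and 3117 to 5196 at 4 years. The 7 markers of interstitial fibroblasts and matrix were all lower as well (median -4.55 at 4 years), with sums of 679 to 912, then 66.5, 229 and 128, then 56.1 to 72.1 FPKM. Of 5 endothelial markers, 4 were lower and 1 higher, and their sums were 25.6 to 35.3 FPKM at 6 months and 31.5 to 32.2 at 4 years. Smooth muscle markers had 2 of 4 higher and 0 lower at 18 months, and 1 higher and 1 lower at 4 years. Most macrophage markers went the other way: of 9 tested identifiers, 6 were higher and 2 lower at both older ages. Their sums were 13.2 to 17.8 FPKM at 6 months and 52.9 to 60.1 at 4 years. The part of these cell types in the changes of COX7A1, COX8B and COX4I2 was not tested.

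COX4I2 (ENSBTAG00000016171), the hypoxia-linked form of subunit 4, was low throughout, at 4.06, 4.51 and 3.84 CPM at 6 months, 1.36, 1.2 and 0.875 at 18 months and 1.46, 1.24 and 0.752 at 4 years (-1.84 ± 0.37, adjusted p = 0.00181). COX4I1 (ENSBTAG00000016079), the ubiquitous form that anchors the nuclear subunits to the catalytic core, climbed from 188, 199 and 203 CPM to 867, 395 and 715 at 18 months and 730, 821 and 656 at 4 years (1.90 ± 0.28, adjusted p = 0.000377). Both changes pushed the ratio the same way, and it fell by 3.78 on the log2 scale from 6 months to 4 years. Over the 3 ages this ratio differed with an exact permutation p of 0.0214 (adjusted 0.0286). NDUFA4L2 (ENSBTAG00000031503), the hypoxia-linked relative of NDUFA4, fell less at 4 years (-1.01 ± 0.41, adjusted p = 0.0484) than NDUFA4 (ENSBTAG00000011145, -2.28 ± 0.34, 0.00037). The NDUFA4L2 call was lost in each alternative except without Y18M replicate 1 (adjusted p of 0.0516 to 0.173 in the others). Their log2 count ratio was 1.18 higher at 4 years than at 6 months and 1.41 higher than at 18 months, and the younger ages overlapped. Over the 3 ages the ratio differed with an exact permutation p of 0.0321 (adjusted 0.0367). This is the weakest of the called ratios: leaving out any 6-month library, or Y18M replicate 2 or 3, gave exact permutation p values of 0.05 to 0.0714.

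**Figure D3:**
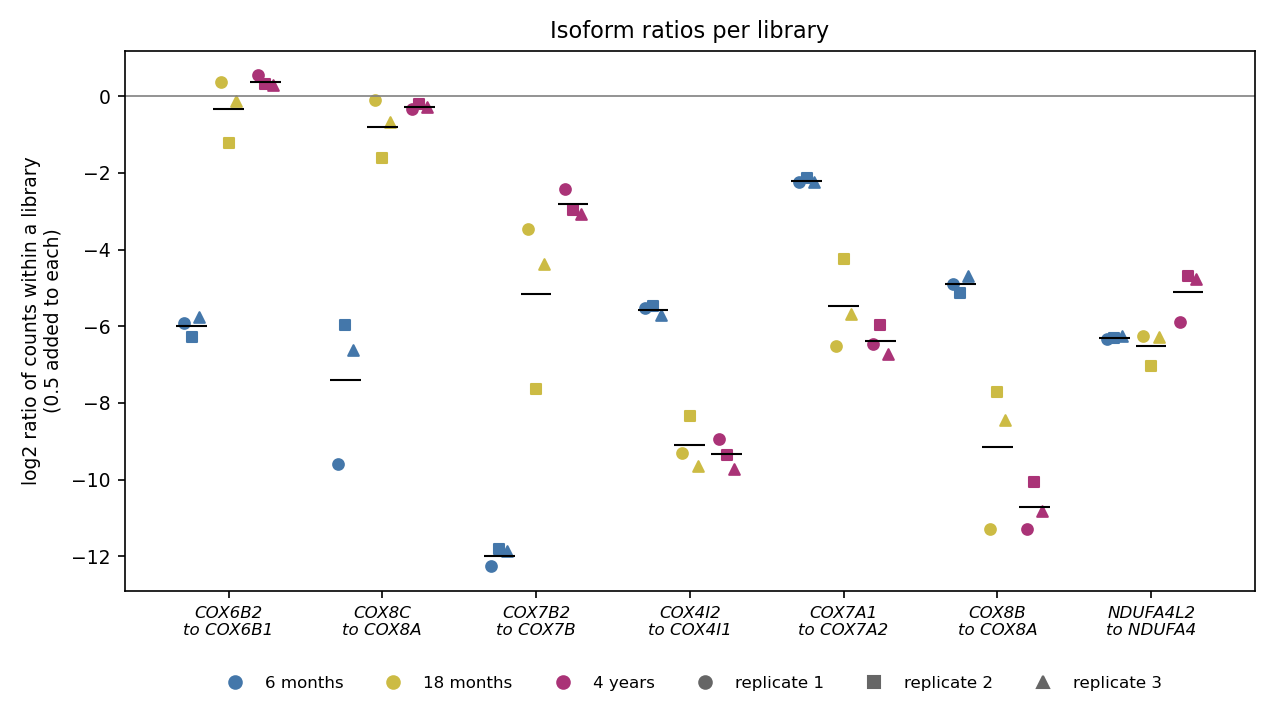
Log2 ratio of the counts of a restricted to a ubiquitous form within each library (y axis, 0.5 added to each count) for 7 isoform pairs (x axis). Colours are ages, symbols are replicates and bars are means of 3; COX6B2 to COX6B1 moves from -5.98 at 6 months to 0.38 at 4 years, and COX7A1 to COX7A2 from -2.21 to -6.38.

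Among the other subunits of complex IV, COX6A1 (ENSBTAG00000012788), the ubiquitous form of subunit 6A, had the highest FPKM of all members at 6 months. It stood at 671, 607 and 619 CPM at 6 months, 173, 361 and 247 at 18 months, and 151, 154 and 143 at 4 years (-2.08 ± 0.26, adjusted p = 0.000171). The 3 ages did not overlap. COX5B (ENSBTAG00000053107), a zinc-binding matrix subunit, fell as well (-1.19 ± 0.18, adjusted p = 0.000411), from 176, 154 and 148 CPM to 65.6, 77.3 and 66.8 at 4 years. Its partner COX5A (ENSBTAG00000017267) was not called and its libraries overlapped, at 38.3 to 49.1 CPM at 6 months and 42.0 to 58.0 CPM at 4 years (0.30 ± 0.19, adjusted p = 0.176). COX7A2L (ENSBTAG00000000705), which links complexes III and IV into supercomplexes, fell from 159, 143 and 145 CPM to 49.9, 52.3 and 50.7 (-1.55 ± 0.16, adjusted p = 7.7e-05).

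Summing the forms of each subunit gives the level of each position. These sums were chosen after the data were seen and carry no test. The FPKM of subunit 4 forms went from 211 ± 8.85 (SD, n = 3) at 6 months to 772 ± 63.3 at 4 years, that of subunit 6B from 163 ± 21.0 to 409 ± 31.7 and that of subunit 7A from 236 ± 42.1 to 539 ± 43.7. For subunits 6A, 7B and 8 the sums were lower at 4 years, going from 697 ± 44.1 to 210 ± 3.18, from 61.9 ± 7.62 to 16.9 ± 0.80 and from 184 ± 6.31 to 129 ± 14.7. For 7B, the 4-year sum stayed below that at 6 months with COX7B2 included.

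Complex I, the NADH dehydrogenase, has a core that transfers electrons and pumps protons, and accessory subunits that surround it. Over 7 nuclear core subunits the median change at 4 years was -0.25, and over 29 accessory identifiers it was -0.51. Core subunits went both ways: NDUFV2, an iron-sulfur subunit of the NADH-oxidising module, rose from 197, 180 and 204 CPM to 554, 269 and 440 at 18 months and 509, 523 and 533 at 4 years (1.43 ± 0.25, adjusted p = 0.000948). NDUFS8, another iron-sulfur subunit, rose by 0.68 ± 0.18 (adjusted p = 0.00832). The largest core subunit NDUFS1 fell (-0.53 ± 0.18, adjusted p = 0.0218). NDUFV1, which binds NADH and FMN, was not called (-0.31 ± 0.17, adjusted p = 0.128). The NDUFS1 call was lost with library size alone (-0.23, adjusted p = 0.264), with DESeq2 (-0.35, 0.115) and without Y6M replicate 1 or 3 or Y4Y replicate 1 or 2 (-0.46, -0.47, -0.55 and -0.45).

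Accessory subunits of complex I included its most extreme members. NDUFB2 (ENSBTAG00000021759), of the membrane arm, stood at 52.3, 52.8 and 60.2 CPM at 6 months, 360, 139 and 287 at 18 months, and 317, 373 and 280 at 4 years (2.55 ± 0.33, adjusted p = 0.000191). All older libraries lay above all 6-month ones, and by FPKM NDUFB2 was the second most abundant member at 4 years, after COX4I1. NDUFA6, NDUFA5 and NDUFA9, of the peripheral arm, rose too, by 2.22 ± 0.36 (adjusted p = 0.000546), 1.40 ± 0.25 (0.000947) and 1.09 ± 0.19 (0.000753). NDUFB11 (ENSBTAG00000051287), of the membrane arm, fell from 181, 163 and 176 CPM to 23.3, 94.3 and 49.9 at 18 months and 25.4, 31.5 and 25.6 at 4 years (-2.66 ± 0.43, adjusted p = 0.000581). NDUFA1 fell from 29.8, 27.4 and 32 CPM to 5.62, 6.13 and 5.50 at 4 years (-2.37 ± 0.43, adjusted p = 0.00104), but at 18 months replicate 2 was at 22.3 CPM and the change was not called (-1.01 ± 0.41, 0.0597). NDUFA1, NDUFB11 and the complex IV subunit COX7B are encoded on the X chromosome in other mammals, a grouping noticed after their values were seen.

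NDUFB10 (-1.73 ± 0.33, adjusted p = 0.00143), NDUFC1 (-1.42 ± 0.19, 0.000223) and NDUFA11 (-1.33 ± 0.23, 0.000719) also fell at 4 years. NDUFA7 (ENSBTAG00000052280) was at 51.8, 52.8 and 49.8 CPM at 6 months, 2.49, 52.1 and 119 at 18 months, and 2.83, 3.1 and 37.9 at 4 years. It varied widely within both older ages and was not called at 4 years (-1.82 ± 1.25, adjusted p = 0.213), though each 4-year library lay below each 6-month one. Its 6-month libraries were alike, while Y18M replicate 1 and Y4Y replicates 1 and 2 were far lower, at 2.49 to 3.1 CPM.

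Complex II, succinate dehydrogenase, is the 1 complex with no mitochondrially encoded subunit, and its 4 subunits did not move together. SDHA (ENSBTAG00000046019), the flavoprotein that oxidises succinate, stood at 266, 256 and 244 CPM at 6 months, 80.7, 249 and 141 at 18 months, and 84.9, 82.7 and 86.4 at 4 years (-1.59 ± 0.35, adjusted p = 0.00277). Y18M replicate 2 was still at the 6-month level, and the change at 18 months was not called (-0.70 ± 0.34, 0.103). SDHB (ENSBTAG00000008314), the iron-sulfur subunit bound to SDHA, rose slightly at 4 years, from 169, 152 and 171 CPM to 226, 236 and 200 (0.43 ± 0.15, adjusted p = 0.0318). That call was lost with the replicate number as a block (0.0618) and without any 6-month library, Y18M replicate 3 or Y4Y replicate 1 or 2, with changes of 0.38 to 0.46 in these fits. The membrane anchors SDHC (ENSBTAG00000015853, -1.63 ± 0.23, adjusted p = 0.000286) and SDHD (ENSBTAG00000016266, -1.52 ± 0.17, 0.000108) fell. The SDHC copy under ENSBTAG00000027962 moved alike (-1.73 ± 0.28, 0.000534).

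In complex III, the cytochrome bc1 complex, 3 of 10 tested identifiers rose at 4 years, 3 fell and the others were not called. UQCRC1 (ENSBTAG00000019096), a core protein, rose from 158, 160 and 167 CPM to 266, 234 and 247 at 18 months and 235, 206 and 201 at 4 years (0.41 ± 0.15 at 4 years, adjusted p = 0.033). UQCRC2 (ENSBTAG00000021651), the other core protein, was higher at 4 years by 0.69 ± 0.23 (adjusted p = 0.0221), and UQCRB, which lines the quinone site, by 0.54 ± 0.20 (0.0313). UQCRFS1, the Rieske iron-sulfur protein, showed no call and overlapping libraries, at 151 to 179 CPM at 6 months and 152 to 194 CPM at 4 years (0.03 ± 0.16, adjusted p = 0.884). The small subunit UQCR10 was not called either (0.11 ± 0.19, adjusted p = 0.625). UQCRH (ENSBTAG00000009603), the acidic hinge protein that contacts cytochrome c1, fell from 176, 160 and 165 CPM to 50.5, 70.7 and 62.0 and then 41.3, 42.7 and 33.7 (-2.09 ± 0.18, adjusted p = 4.44e-05), with no overlap between any pair of ages. The 3 rises of complex III were near the threshold. UQCRC1 lost its call with the replicate number as a block (0.0643) and without any 6-month library, Y18M replicate 3 or Y4Y replicate 1 or 2 (0.34 to 0.44). UQCRC2 lost it without Y6M replicate 1 or 2 or Y4Y replicate 1 or 3 (0.63 to 0.68), and UQCRB without Y6M replicate 2 or 3 or any 4-year library (0.42 to 0.57). The small subunits UQCR11 (-2.40 ± 0.34, adjusted p = 0.000278) and UQCRQ (-1.5 ± 0.26, 0.000796) fell as well.

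Complex V, the ATP synthase, has no testis form among the members, and 12 of its 19 tested identifiers fell at 4 years (63.2%, against 37.2% of all genes). In the catalytic head, ATP5F1A (ENSBTAG00000002507, alpha) went from 1432, 1198 and 1445 CPM to 640, 1026 and 901 at 18 months and 531, 573 and 511 at 4 years (-1.34 ± 0.22, adjusted p = 0.000668). ATP5F1B (ENSBTAG00000013315, beta) went from 962, 815 and 914 CPM to 518, 526 and 477 at 4 years (-0.82 ± 0.19, adjusted p = 0.00331). At 18 months the alpha subunit was called (-0.67 ± 0.22, 0.0268), but not with library size alone (-0.25, 0.398) or without Y6M replicate 1 or 3 or Y18M replicate 3 (-0.63, -0.62 and -0.70). The beta subunit was at -0.35 ± 0.18 (0.132), and at 0.06 with library size alone.

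The 3 genes for the identical mature c subunit, which forms the rotor ring, fell together. ATP5MC1 (ENSBTAG00000018339) went from 87.2, 62.2 and 64.4 CPM to 24.4, 23.4 and 23.7 at 4 years (-1.58 ± 0.19, adjusted p = 0.000133). ATP5MC3 (ENSBTAG00000002944) went from 156, 137 and 135 CPM to 30.4, 29.0 and 29.5 (-2.27 ± 0.27, adjusted p = 0.000143). For both, every 4-year library was below every library of the other ages. ATP5MC2 (ENSBTAG00000005735) was spread more, at 84.8, 87.8 and 32.6 CPM at 6 months and 3.71, 13.8 and 12.6 at 4 years (-2.77 ± 0.72, adjusted p = 0.00721). Their summed level was 193 ± 36.5 FPKM (SD, n = 3) at 6 months, 99.3 ± 41.2 at 18 months and 54.7 ± 5.46 at 4 years.

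ATP5PD (-1.43 ± 0.17, adjusted p = 0.00014) and ATP5PB (ENSBTAG00000006441, -0.49 ± 0.18, 0.0338), of the peripheral stalk, fell, and so did ATP5MG (-1.23 ± 0.15, 0.00015), a membrane subunit, and ATP5IF1 (-0.81 ± 0.17, 0.00194), the inhibitor that stops reverse hydrolysis of ATP. The members of complex V called higher at 4 years were ATP5MJ (1.45 ± 0.27, adjusted p = 0.00128), a small membrane subunit, and a rare second ATP5PB identifier (ENSBTAG00000051149) at under 1 CPM (1.73 ± 0.54, 0.0175). The common ATP5PB identifier lost its call with library size alone (-0.19), with DESeq2 (-0.31), with no filter on low counts (-0.47) and without any single library of either age (-0.42 to -0.54). The rare one lost it without Y6M replicate 1 or 3 or Y4Y replicate 3 (1.5 to 1.58).

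The FPKM of the nuclear subunits were also summed by complex, and such a sum cannot move farther than its extreme members. All members together made up 1.42% to 1.58% of the FPKM at 6 months, 1.98% to 2.26% at 18 months and 1.81% to 1.92% at 4 years. Complex I was at 2242 to 2340 FPKM at 6 months, 3085 to 3710 at 18 months and 3111 to 3464 at 4 years. Complex IV was at 2208 to 2606, 2885 to 3451 and 2791 to 2987 FPKM at these ages. Complex III was at 881 to 942, 1102 to 1264 and 995 to 1016 FPKM. Complexes II and V, in contrast, had their lowest values at 4 years. Complex II was at 372 to 405, 320 to 492 and 293 to 315 FPKM, and complex V at 3021 to 3404, 2843 to 3100 and 2439 to 2519 FPKM. COX4I1, NDUFB2 and COX7A2 had the highest FPKM of all members at 4 years. The sums of complexes I and IV were higher at 4 years, whereas the median change of their members was below 0. FPKM are not TMM-scaled, and these sums carry no test.

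**Figure D4:**
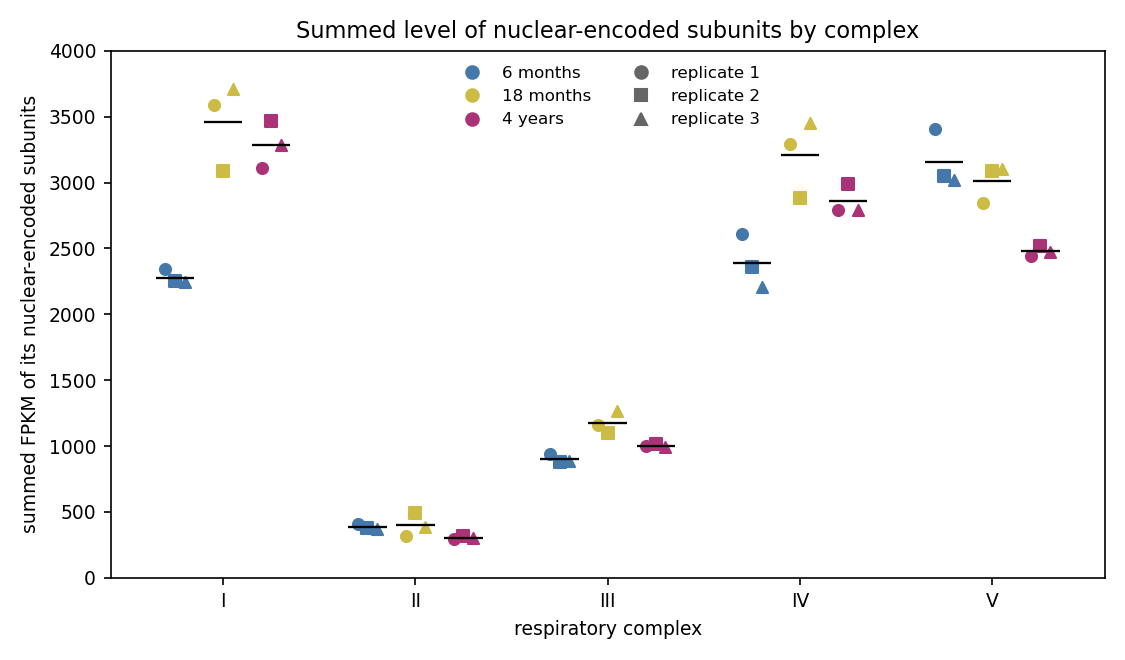
Summed FPKM of the nuclear-encoded subunits (y axis, from 0) of each respiratory complex (x axis) in every library. Colours are ages, symbols are replicates and bars are means of 3; complex I lies at 2242 to 2340 at 6 months and at 3111 to 3464 at 4 years, and complex V at 3021 to 3404 and 2439 to 2519.

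Between 18 months and 4 years, no member was called in either direction by edgeR (0% and 0.00597% of all genes were called higher and lower), and DESeq2 called 2 lower, UQCRH and SDHC. At an unadjusted p under 0.05, 26 of 92 members differed (28.3%, against 21.3% of all genes), 2 higher and 24 lower at 4 years. The median change was -0.21, against -0.03 for all genes. This comparison turned on Y18M replicate 1, the 18-month animal nearest the 4-year libraries. Without it, 1 member was higher and 24 lower at 4 years (13.2% and 19.8% of all genes).

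The member higher in that fit was ATP5MJ (0.99 ± 0.22, adjusted p = 0.0142). Those lower were led by NDUFA1 (-1.75 ± 0.20, adjusted p = 0.00612), SDHC (-1.18 ± 0.18, 0.00633), ATP5MC3 (-1.18 ± 0.18, 0.00666), NDUFB11 (-1.39 ± 0.25, 0.0085) and SDHA (-1.2 ± 0.23, 0.00903). Each of these had fallen from 6 months to 4 years as well, a comparison that shares the 4-year animals. The testis forms were not called in the full comparison: COX6B2 was at 0.41 ± 0.38 (adjusted p = 0.494), COX8C at -0.15 ± 0.55 (0.871) and COX7B2 at 1.22 ± 0.71 (0.327).

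Proteins that build the complexes, feed them or export their ATP were set beside the subunits. Of 49 tested assembly factors, 13 were higher (26.5%, against 36.7% of all genes) and 19 lower (38.8%, against 37.2%) at 4 years than at 6 months. At 18 months 11 were higher (22.4%, against 32.7%) and 12 lower (24.5%, against 27.1%), so the shares called lower were near those of all genes. The risers included COA8 (3.79 ± 0.61, adjusted p = 0.000544) and COX10 (2.42 ± 0.23, 5.76e-05), which makes heme for complex IV. They also included the complex I assembly factors ECSIT (3.52 ± 0.40, 0.000109) and NDUFAF2 (3.17 ± 0.51, 0.000579). The copper chaperones SCO2 (-2.79 ± 0.45, 0.000576) and SCO1 (-1.97 ± 0.27, 0.000249) fell.

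Of 28 tested identifiers of carriers and fuel enzymes, 8 were higher (28.6%, against 36.7% of all genes) and 15 lower (53.6%, against 37.2%) at 4 years. At 18 months 7 were higher (25%, against 32.7%) and 11 lower (39.3%, against 27.1%). PDHA2, the testis form of the pyruvate dehydrogenase E1 alpha subunit, went from 0.380, 0.0867 and 0.0914 CPM at 6 months to 357, 32.7 and 179 at 18 months and 335, 361 and 275 at 4 years. Its somatic form PDHA1, again X-linked in other mammals, fell from 114, 83.4 and 110 CPM to 23.8, 23.2 and 26.7 (-2.06 ± 0.21, adjusted p = 8.03e-05). CYCT, the testis cytochrome c, rose by 4.85 ± 0.65 (0.000231) while CYCS fell slightly (-0.73 ± 0.26, 0.0306).

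The adenine nucleotide carriers, which exchange the ATP made by complex V for ADP, had a much lower sum at 4 years than at 6 months. SLC25A31, the germ cell form, rose by 4.72 ± 0.46 (adjusted p = 6.55e-05), whereas SLC25A6 (ENSBTAG00000047418, -4.04 ± 0.50, 0.000164), SLC25A5 (-3.66 ± 0.45, 0.000157) and SLC25A4 (-2.37 ± 0.32, 0.00023) fell. The summed level of the carriers was 1665 ± 128 FPKM (SD, n = 3) at 6 months and 174 ± 2.87 at 4 years, while that of the pyruvate dehydrogenase forms went from 20.3 ± 2.63 to 247 ± 24. Among 15 regulators of mitochondrial biogenesis, 5 were higher and 6 lower at 4 years (33.3% and 40%, near the 36.7% and 37.2% of all genes). TFAM, which packages mitochondrial DNA and starts its transcription, rose by 2.88 ± 0.61 (0.00246), and POLRMT, the mitochondrial RNA polymerase, by 1.37 ± 0.20 (0.000346), while POLG, the DNA polymerase, fell (-1.40 ± 0.32, 0.00345).

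The authors' deposited table of 18 months against 6 months lists 25 members, 13 higher and 12 lower at 18 months. Their table of 4 years against 6 months lists 39, of which 25 are higher at 6 months and 14 higher at 4 years, and the table of 18 months against 4 years lists none. Every listed member differs by more than 2-fold in group mean FPKM, which carry no TMM scaling. With at least a 2-fold change required, the fit here called 10 higher and 23 lower at 18 months, and 12 and 34 at 4 years. The share of all genes in the authors' tables is not given here. For COX6B2 the authors' deposited table gives a log2 ratio of 6.08 for 18 months over 6 months.

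The length that links the authors' counts and FPKM was compared between ages as a sign of changed transcript forms, a measure chosen after the data were seen. Among 79 members with at least 100 counts in each library, 4 differed by over 1.2-fold between 4 years and 6 months (5.06%, against 15.5% of 9469 genes). The ratio was 0.703 for NDUFC1, 0.795 for NDUFV3, 1.29 for COX4I1 and 1.24 for NDUFS8. Subunit genes were also a minor source of circular RNA: 49 of the 73679 circular RNAs came from 25 members, with 24 to 65 back-splice reads a library, or 0.0200% to 0.0383% of all such reads. NDUFS1 gave 8 of these circular RNAs with 197 reads over all libraries, 22, 23 and 19 at 6 months, 31, 41 and 20 at 18 months and 17, 14 and 10 at 4 years. The next host, SDHD, gave 10, 12 and 3 reads at 6 months, 2, 7 and 3 at 18 months and 0, 2 and 2 at 4 years.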

How the data were processed

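Per the labels' protocols, RNA from frozen testis was depleted of ribosomal RNA and sequenced in pairs. The submitters' processing notes name fastp 0.18.0, HISAT2 2.1.0, StringTie 1.3.4 and the cattle genome build UMD3.1, without roles. For genes the authors deposited estimated counts, which were rounded here, and FPKM values. The deposited circular RNA table holds back-splice read counts. The authors' comparison tables give log2 ratios of group means and adjusted p-values. Counts were fitted in edgeR 4.0.16 (R 4.3.3): filterByExpr, TMM, glmQLFit and glmQLFTest, 9 libraries, age as the only factor, 6 residual degrees of freedom, calls at adjusted p under 0.05. The fit was tested on simulated data for 18 months against 6 months with few genes changed: fitted folds were near the true ones, but most changed genes were not called. A first criterion on the share called was not met and was replaced, once this was seen, by one on the fitted folds and the share of false calls. In the comparisons with 6 months a far larger share of genes was called, so the share recovered in the simulation does not carry over to them. A gene that was not called may still differ. Isoform ratios (counts plus 0.5, identifiers of a symbol summed) were compared by exact permutation tests in Python 3.11.15 with SciPy 1.17.1. DESeq2 1.42.0, another scaling, no filter, a 2-fold minimum, summed identifiers of a symbol, a replicate block and leaving out libraries were alternatives.

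Members, gene lists and tests were chosen with earlier results of these data known. Named genes were the isoform pairs, 20 members of known role, the members with the smallest p per complex and direction, and the extremes; the other members and the genes of the lists were named after their values were seen. The miRNA tables were not used here. Intervals and floors hold counting error alone. A named member is not reported here.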

Additional observations from a re-analysis of the deposited data

How the results depend on the processing

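With library size alone, 29 members were higher and 19 lower at 18 months than at 6 months, in place of 13 and 42, and requiring a 2-fold change left 23 lower. Leaving out 1 library at a time gave 11 to 28 higher and 27 to 39 lower there (28 and 39 without Y18M replicate 2, 27 without Y6M replicate 1 or 3), and 13 to 23 higher and 42 to 48 lower at 4 years. The shares of all genes in the 4-year fits are not given here, so these counts may have moved with the whole table. For 4 years against 18 months the ranges were 0 to 1 higher and 0 to 24 lower, with 1 and 24 without Y18M replicate 1, and DESeq2 called 2 lower. The cause was not tested. The change in the log2 ratio of NDUFA4L2 to NDUFA4 from 6 months to 4 years ranged from 0.97 to 1.57. That ratio lost its call over the 3 ages in 5 of these fits. No filter on low counts and summing identifiers of a symbol kept the counts of members called higher and lower within 1.5 times in each comparison.

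No called member changed direction in any alternative that kept the identifiers of a symbol apart, and the fit with summed identifiers was not checked for this. Each of the members below that changed direction was not called in the main fit. Members without a call were followed only where named by the rule given above, so others may have changed direction too. For 18 months against 6 months, library size alone gave 0.064 for ATP5F1B, 0.23 for COX6B1 and 0.33 for NDUFV1, which was at 0.018 with DESeq2 and ranged from -0.12 to 0.040 over the libraries left out. UQCRFS1 at 4 years against 6 months ranged from -0.062 to 0.15. For 4 years against 18 months, library size alone gave -0.013 for SDHB, -0.047 for NDUFA9, -0.015 for COX7A2 and -0.10 for COX4I2. DESeq2 gave 0.025 for COX5A, 0.0068 for UQCRC2 (ENSBTAG00000034662) and 0.054 for NDUFS1. Over the libraries left out, the ranges there were -1.07 to 0.29 for ATP5MC2, -0.0025 to 0.40 for UQCRC2 (ENSBTAG00000021651), -0.23 to 0.080 for its ENSBTAG00000034662 copy and -0.95 to 0.57 for ENSBTAG00000031913, -0.10 to 0.41 for COX4I1, -0.047 to 0.20 for NDUFA9, -0.16 to 0.27 for COX7A2, -0.13 to 0.088 for COX5A, -0.086 to 0.083 for NDUFS1 and -0.19 to 0.24 for COX4I2.

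Replicate numbers name different animals, and same-numbered libraries did not deviate together (correlations of -0.14 to 0.10). With the replicate block, 12 members were higher and 38 lower at 18 months, 16 and 46 at 4 years, and 0 in either direction between 18 months and 4 years, where the block put COX4I2 at -0.0073. Over all genes the block moved the calls in either direction from 10026 to 9439 at 18 months and from 12372 to 11939 at 4 years. The shares of all genes by direction with the block are not given here.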
